A study of Mus musculus with 18 samples.

Results

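The response to intravenous immunoglobulin (IVIg) that 3 mouse genotypes have in common was read from all 18 libraries of the series, 9 from mice given IVIg and 9 from mice given phosphate-buffered saline (PBS), chosen by their treatment labels with genotype kept as a blocking factor. Each library holds messenger RNA of monocytes sorted from the spleen on day 3. The 6 groups have 3 independent mice each, per the series' design text: C57BL/6 wild type (WT) with PBS, WT with IVIg, Dectin-1-/- with PBS, Dectin-1-/- with IVIg, FcgRIIb-/- with PBS and FcgRIIb-/- with IVIg. The IVIg dose, the age of the mice and the parts deleted in the knockouts are not given in the sources used here. The question was which genes and families stood higher or lower with IVIg in the same direction with and without each receptor.

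IVIg is immunoglobulin G pooled from many donors, used as an anti-inflammatory treatment in autoimmune disease. FcgRIIb is the inhibitory Fc gamma receptor, which dampens activating signals through an ITIM motif, and Dectin-1, encoded by Clec7a, is a C-type lectin that binds beta-glucan and signals through Syk and CARD9. Splenic monocytes comprise Ly6C-high classical cells, which enter inflamed tissue and become macrophages or dendritic-like cells, and Ly6C-low non-classical cells, which patrol vessels and depend on Nr4a1.

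The libraries held 16996494 to 48958909 counts in 17 cases, and FcgRIIb knockout PBS replicate 2 held 719494. Levels are given as CPM, counts scaled to a common library size with TMM factors. In that shallow library 3 counts equal 4.23 CPM, and in the deeper ones 0.0614 to 0.185 CPM, which leaves genes of a few CPM unmeasured there. The monocyte label was checked on 14 identity markers, all of which passed the low-count filter, with a summed level of 25829.5 to 48183 CPM over the 18 libraries, and Csf1r, the colony-stimulating factor receptor of this lineage, stood between 1423 and 2793 CPM. Clec7a lay between 0.247 and 4.05 CPM in the 6 Dectin-1 knockout libraries and between 360.1 and 955 CPM elsewhere. Fcgr2b counts remained in the FcgRIIb knockout, at 129.8 to 249.7 CPM against 208 to 317 CPM elsewhere, which is a weak check of that label because counts cover the whole gene.

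Across genes, no transcript separated IVIg from PBS in all genotypes at the threshold used. The blocked comparison called 0 of 17040 genes (0.00%) at an adjusted p under 0.05 with edgeR's quasi-likelihood test and Benjamini-Hochberg adjustment, and the smallest adjusted p was 0.471. At an unadjusted p under 0.05 there were 465 genes (2.73%), 293 higher with IVIg (1.72%) and 172 lower (1.01%). DESeq2 and limma voom also called 0 genes, and edgeR called Mpo and Prg2, granule proteins of neutrophils and eosinophils, when Dectin-1 knockout IVIg replicate 3 was left out. Within a genotype, edgeR called 1 gene in WT (0.00587%), 0 in the Dectin-1 knockout (0.00%) and 0 in the FcgRIIb knockout (0.00%), with 429, 556 and 544 genes at an unadjusted p under 0.05 (2.52%, 3.26% and 3.19%). DESeq2 called 2, 2 and 16 genes and limma voom 0 in each. The interaction of treatment with genotype, which asks whether the 3 responses differ, called 0 genes (0.00%) in edgeR and DESeq2, with 541 (3.17%) at an unadjusted p under 0.05 in edgeR. A direction held in common was therefore counted: 1855 genes had a log2 fold change above 0 in each of the 3 genotypes (10.9%) and 1341 below 0 in each (7.87%). These shares are the background for every count of family members that follows, and such counts are descriptions of sign without a test.

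Gng3, a gamma subunit of heterotrimeric G proteins, was the 1 gene (0.00587%) whose IVIg libraries lay above the PBS libraries without overlap in every genotype, and 0 genes lay below (0.00%). It was named after this pattern was seen (ENSMUSG00000071658, chr19:8814297-8816558 on GRCm39, minus strand). Its level was 1.66, 2.77 and 1.64 CPM in WT with PBS and 3.14, 3.03 and 3.13 CPM in WT with IVIg. In the Dectin-1 knockout it was 2.30, 2.60 and 1.30 CPM with PBS and 4.20, 2.67 and 3.88 CPM with IVIg, and in the FcgRIIb knockout 2.15, 0 and 1.89 CPM against 3.10, 4.27 and 3.63 CPM. The groups were closest in the Dectin-1 knockout, where 2.67 CPM with IVIg stood beside 2.60 CPM with PBS. The 0 belongs to the shallow library, where a gene of this level is unmeasured. Separation in the FcgRIIb knockout thus rests on its other PBS libraries, at 2.15 and 1.89 CPM. The log2 fold change was 0.72 ± 0.21 (SE, n = 9 against 9), with an edgeR adjusted p of 1. In at least 2 genotypes without a reversal in the other, 75 genes had IVIg above PBS without overlap (0.440%) and 25 had it below (0.147%). The shallow PBS library detected 10357 genes, and a gene with 0 counts there could not have IVIg below PBS in the FcgRIIb knockout. Separation above was then decided by the other PBS libraries of that group. The higher and lower counts of this paragraph are therefore not comparable with each other.

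Among genes with a mean of at least 5 CPM that the naming rule admits, the smallest unadjusted p values on the higher side belonged to Pltp, Hbb-bs, Zfp770, Camp, Papolg and Mmp12. That rule leaves out gene models, antigen receptor segments, pseudogenes, Xist and Y-linked genes. Pltp, the phospholipid transfer protein that remodels lipoproteins, ranged from 124 to 213 CPM with a median of 147 in the 9 PBS libraries and from 169.9 to 281 CPM with a median of 203 in the 9 IVIg libraries. Its IVIg and PBS libraries were apart in the FcgRIIb knockout only, at 208, 203 and 177 CPM with IVIg and 124, 147 and 130 CPM with PBS, and they overlapped in WT and in the Dectin-1 knockout. The log2 fold change was 0.41 ± 0.12 (SE, n = 9 against 9), with 0.53 in WT, 0.15 in the Dectin-1 knockout and 0.59 in the FcgRIIb knockout. Papolg, a poly(A) polymerase, stood at 25.7, 25.2 and 25.1 CPM in WT with PBS and at 35.5, 34.0 and 35.1 CPM in WT with IVIg. That gap in WT was many times the spread inside either group, whereas in the Dectin-1 knockout the IVIg libraries at 23, 37.4 and 34.7 CPM lay on both sides of the PBS libraries at 30.3, 31.6 and 25.4 CPM. Over the 3 genotypes Papolg gave a log2 fold change of 0.35 ± 0.12. Zfp770, a zinc finger protein, gave 0.51 ± 0.16 with 0.41, 0.26 and 0.99 in WT, Dectin-1 and FcgRIIb knockout mice, and its lowest PBS value was 0 CPM in the shallow library. Mmp12, the macrophage elastase, gave 0.89 ± 0.32 with a change of 0.21 in the Dectin-1 knockout. Camp, the cathelicidin of neutrophil granules, was at 3.17 ± 1.07 over the genotypes but at -1.97 in WT, so its sign was not common to them. It reached the 5 CPM mean through Dectin-1 knockout IVIg replicates 1 and 2, at 25.2 and 56.3 CPM. Its median was 0 CPM in the PBS libraries and 0.389 CPM in the IVIg libraries. Every gene of this paragraph had an adjusted p of 1 in edgeR.

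On the lower side the genes were Chil3, Idi1, Fos, Rab7b, C1rl and Morrbid, and each had a log2 fold change below 0 in all 3 genotypes. Idi1, the isopentenyl diphosphate isomerase of cholesterol synthesis, stood at 13.4, 13.2 and 9.22 CPM in WT with PBS and 8.64, 10.2 and 11.5 CPM in WT with IVIg. It stood at 13.2, 13.7 and 14.9 CPM in the Dectin-1 knockout with PBS and 8.41, 9.27 and 10.7 CPM with IVIg, and at 12.4, 12.7 and 15.1 CPM in the FcgRIIb knockout with PBS and 10.4, 6.41 and 9.64 CPM with IVIg. The IVIg libraries were below the PBS libraries without overlap in both knockouts and mixed with them in WT, where 1 PBS library was low. IVIg over PBS gave a log2 fold change of -0.46 ± 0.14 (SE, n = 9 against 9). Fos, an immediate early transcription factor, ranged from 25.9 to 70.2 CPM with a median of 49.8 across PBS libraries and from 16.8 to 46.7 CPM with a median of 30.3 across IVIg libraries. Its groups were apart in the FcgRIIb knockout alone, at 70.2, 64.9 and 46.0 CPM with PBS and 29.0, 26.2 and 36.0 CPM with IVIg, and its log2 fold change was -0.64 ± 0.21. Rab7b, a small GTPase of late endosomes, gave -0.50 ± 0.17, C1rl, a complement C1r-like protease, -0.60 ± 0.22, and Morrbid, a long non-coding RNA that represses Bcl2l11 and prolongs myeloid cell survival, -0.52 ± 0.20. All 6 had an adjusted p of 1 in edgeR.

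**Figure D1:**
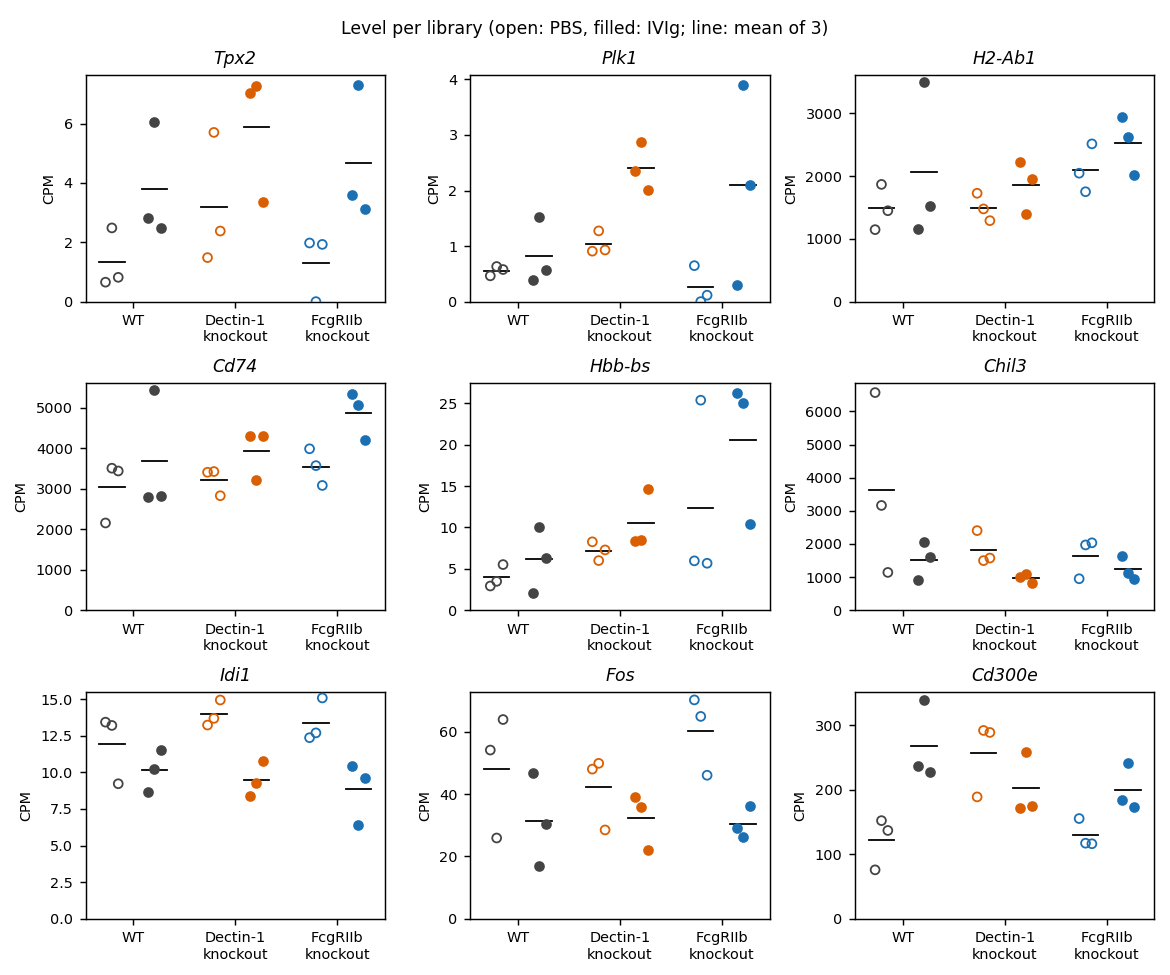
Level of 9 genes in each library (y axis, CPM, starting at 0) by genotype, with open circles for PBS, filled circles for IVIg and a line at the mean of 3 libraries. Idi1 is separated by treatment in both knockouts, Chil3 varies most among WT PBS libraries (1139.6 to 6571 CPM), and Cd300e is higher with IVIg in WT and the FcgRIIb knockout but not in the Dectin-1 knockout.

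Families were then compared by direction over 39 gene lists. The median log2 fold change of a list lay above 0 in all 3 genotypes for 4 lists, which were cell cycle, MHC class II, erythroid and NK cell genes, and below 0 in all 3 for 1 list, the classical monocyte markers. The other 34 lists had medians of both signs or a median of 0 in some genotype. These signs were those of all 18 libraries, and leaving out a single library turned a genotype's median to the other side of 0 for cell cycle, MHC class II, NK cell and classical monocyte genes, as given with each list. For erythroid genes the median stayed above 0 in every genotype in all settings that gave one. No member of any list was called in the blocked comparison. Over all genes tested the median was 0.01.

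**Figure D2:**
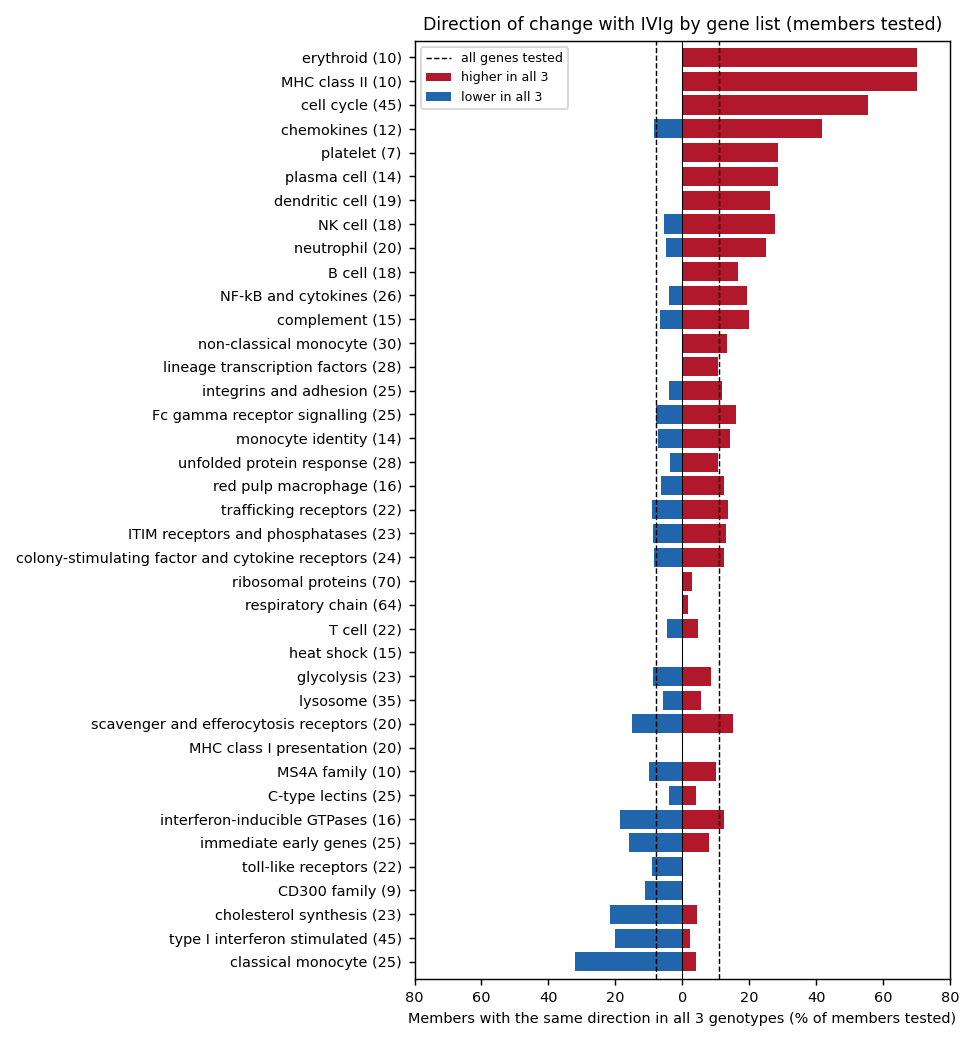
Share of the tested members of each gene list (x axis, %) with a log2 fold change above 0 in all 3 genotypes (red, to the right) or below 0 in all 3 (blue, to the left), with the number of members tested in parentheses and dashed lines at 10.9% and 7.87%, the shares of all genes tested. Erythroid and MHC class II genes (70.0% each) and cell cycle genes (55.6%) stand farthest to the right and classical monocyte markers (32.0%) farthest to the left.

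Cell cycle genes were the largest family with a common direction. The list covers DNA replication (the Mcm helicase subunits, Rrm2, Tk1), mitotic kinases and cyclins (Cdk1, Ccnb1, Ccnb2, Plk1, Aurka) and the spindle and kinetochore (Tpx2, Nusap1, Kif11, Cenpa), and all 45 members passed the low-count filter. Of these, 25 were higher with IVIg in each of the 3 genotypes (55.6%, against 10.9% of all genes) and 0 were lower in each (against 7.87%). The median log2 fold change was 0.33 over the genotypes, 0.34 in WT, 0.21 in the Dectin-1 knockout and 0.49 in the FcgRIIb knockout. At an unadjusted p under 0.05, 7 members were higher and 0 lower, against 1.72% and 1.01% of all genes. The summed level of the list was 563 to 854 CPM in PBS libraries and 613 to 957 CPM in IVIg libraries, ranges that overlap. In bulk samples more cells of a type and more RNA per cell, here a larger share of dividing cells and more of these transcripts in each cell cannot be told apart, and the same holds for every family described here.

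Tpx2, which activates Aurora A kinase and nucleates spindle microtubules, had the smallest p of the list (ENSMUSG00000027469, chr2:152689884-152737241 on GRCm39, plus strand). It stood at 0.655, 2.48 and 0.819 CPM in WT with PBS against 2.83, 6.04 and 2.48 CPM with IVIg, and at 1.48, 5.70 and 2.38 CPM in the Dectin-1 knockout with PBS against 7.05, 7.27 and 3.35 CPM with IVIg. In the FcgRIIb knockout it stood at 1.98, 0 and 1.93 CPM with PBS and 3.60, 7.29 and 3.14 CPM with IVIg. The IVIg libraries were above the PBS libraries without overlap in the FcgRIIb knockout, met the highest PBS library at 2.48 CPM in WT and overlapped in the Dectin-1 knockout. The 0 CPM in the FcgRIIb knockout belongs to the shallow library, where a gene of this level is unmeasured. The log2 fold change was 1.15 ± 0.33 (SE, n = 9 against 9, edgeR adjusted p = 1).

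Plk1, the polo-like kinase of mitotic entry, stood at 0.464, 0.632 and 0.578 CPM in WT with PBS against 0.398, 1.51 and 0.577 CPM with IVIg. It stood at 0.908, 1.27 and 0.929 CPM in the Dectin-1 knockout with PBS against 2.35, 2.88 and 2.01 CPM with IVIg, and at 0.647, 0 and 0.116 CPM in the FcgRIIb knockout with PBS against 0.296, 3.89 and 2.10 CPM with IVIg. Its groups were apart in the Dectin-1 knockout, and 2 IVIg libraries in WT and 1 in the FcgRIIb knockout lay under the highest PBS library. Its value of 0 CPM likewise belongs to the shallow library. Plk1 gave 1.29 ± 0.40 on the log2 scale, Cdc20, the activator of the anaphase-promoting complex, 0.92 ± 0.35, and Nusap1, a spindle protein, 0.94 ± 0.39. The replication helicase subunits are more abundant, and Mcm7 gave 0.33 ± 0.15, Mcm4 0.19 ± 0.12 and Mcm6 0.22 ± 0.16, each higher in all 3 genotypes. Members without a common sign included Mki67, the proliferation marker Ki-67, at -0.37 in WT, 0.18 in the Dectin-1 knockout and 1.45 in the FcgRIIb knockout, and Pcna, the replication clamp, at 0.23, 0.01 and -0.12. Plk1, Cdc20, Nusap1 and the other members named here beside Tpx2 were picked after their values were seen.

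**Figure D3:**
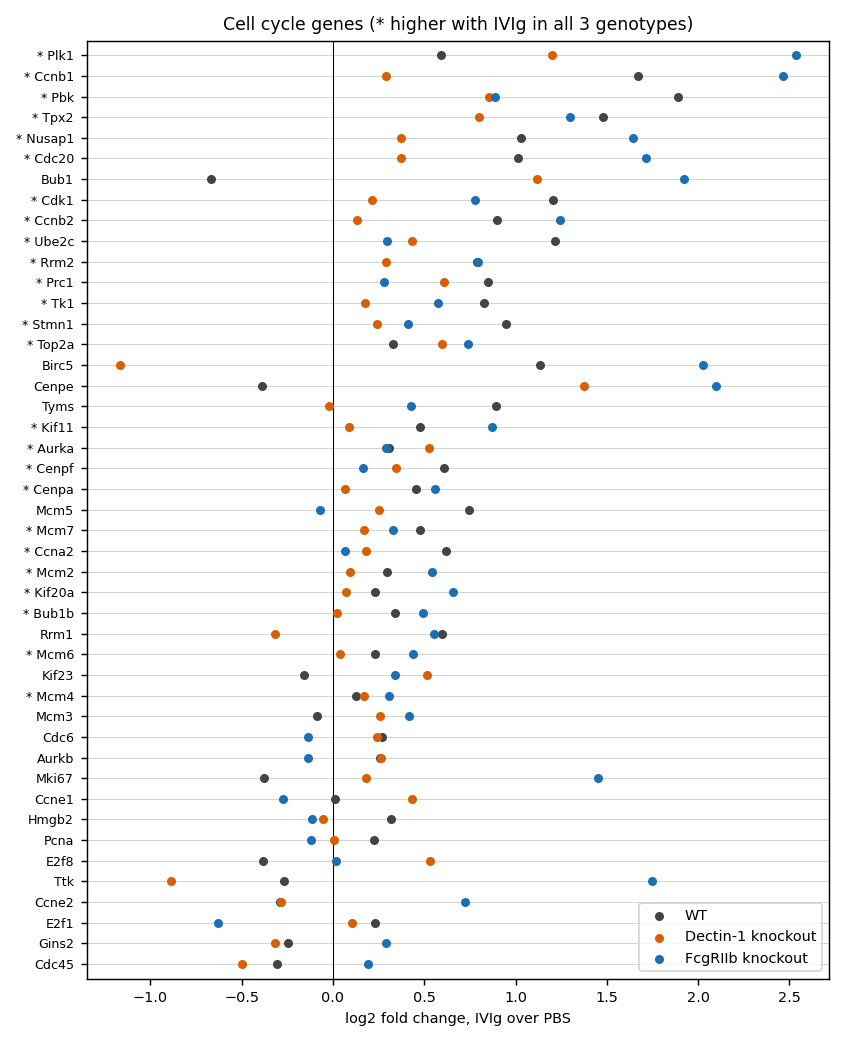
log2 fold change of IVIg over PBS (x axis) for the 45 cell cycle genes in WT, Dectin-1 knockout and FcgRIIb knockout mice, ordered by the change over the 3 genotypes, with an asterisk on the 25 genes above 0 in each. No gene is below 0 in all 3, and of the 3 medians that of the Dectin-1 knockout (0.21) lies nearest to 0.

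The cell cycle count leaned on the Dectin-1 knockout, whose median was the smallest. It was 16 of 45 when Dectin-1 knockout PBS replicate 1 was left out. It was 11 of 45 when IVIg replicate 2 of the same genotype, the library with the highest neutrophil markers, was left out. The Dectin-1 knockout median was then 0.05 and -0.01, so its sign did not hold without the latter library. In the other genotypes the median was 0.16 in WT without WT IVIg replicate 2 and 0.19 in the FcgRIIb knockout without its IVIg replicate 2. The count stayed at 25 without the shallow library, without WT PBS replicate 3 and WT IVIg replicate 1, without all 3 of these libraries, and with the trend on gene length removed. That WT pair of unlike treatment had the second highest rank correlation of all pairs (0.9746), after WT PBS replicate 2 with Dectin-1 knockout IVIg replicate 2 (0.9805), also of unlike treatment.

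The upstream sequences of cell cycle and MHC class II members are shown because both families are textbook cases of a CCAAT box close to the start site, an element bound by the factor NF-Y. Promoters came from the RefSeq table of GRCm38.p6, a build other than that of the counts, and 36 of the 45 cell cycle genes and 7 of the 10 MHC class II genes matched by symbol. In the 250 bases before the start, searched on both strands, the letters CCAAT occurred in 29 of 36 cell cycle promoters (80.6%), in 17 of the 19 whose gene was higher in all 3 genotypes (89.5%) and in 6 of 7 MHC class II promoters (85.7%), against 34.5% of all 27025 promoters. The cell cycle homology region, searched as TTTGAA, occurred in 11 of 36 cell cycle promoters (30.6%) against 16.3% of all, and an E2F element, searched as TTTNGCGC, in 3 of 36 (8.33%) against 1.15%. Neither was found in the 7 MHC class II promoters, and all 3 motifs were chosen after the gene values were seen. Capitals mark CCAAT or its reverse complement ATTGG and, in Cdc20, TTTGAA.

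The 4 promoters run 5′ to 3′ toward the gene and end at the base before its start, at chr7:122159185-122159434, plus strand for Plk1, chr4:118437344-118437593, minus strand for Cdc20, chr17:34305617-34305866, plus strand for H2-Eb1 and chr17:34092129-34092378, plus strand for H2-Oa.
Plk1: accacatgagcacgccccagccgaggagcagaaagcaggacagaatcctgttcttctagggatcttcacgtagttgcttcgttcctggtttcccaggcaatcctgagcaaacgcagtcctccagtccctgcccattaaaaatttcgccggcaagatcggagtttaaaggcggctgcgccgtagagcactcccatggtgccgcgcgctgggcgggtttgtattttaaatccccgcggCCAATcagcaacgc
Cdc20: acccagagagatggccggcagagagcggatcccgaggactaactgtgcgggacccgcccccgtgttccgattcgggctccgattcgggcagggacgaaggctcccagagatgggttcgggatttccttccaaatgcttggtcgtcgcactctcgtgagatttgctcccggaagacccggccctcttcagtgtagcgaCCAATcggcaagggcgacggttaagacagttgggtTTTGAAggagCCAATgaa
H2-Eb1: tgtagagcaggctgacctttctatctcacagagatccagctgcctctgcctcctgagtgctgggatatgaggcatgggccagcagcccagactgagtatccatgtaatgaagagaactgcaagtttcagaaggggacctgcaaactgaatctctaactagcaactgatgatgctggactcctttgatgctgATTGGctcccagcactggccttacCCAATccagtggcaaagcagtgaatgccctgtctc
H2-Oa: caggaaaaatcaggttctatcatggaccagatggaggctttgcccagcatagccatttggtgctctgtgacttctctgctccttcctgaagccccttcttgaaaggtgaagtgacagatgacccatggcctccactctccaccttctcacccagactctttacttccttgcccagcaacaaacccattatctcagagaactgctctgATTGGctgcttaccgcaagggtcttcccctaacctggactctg

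The Plk1 promoter holds 1 CCAAT, 14 bases before the start, and that of Cdc20 holds 2 with a TTTGAA between them. H2-Eb1 has 1 copy on each strand and H2-Oa has 1 copy as ATTGG. A match describes the letters and is no evidence of binding in these cells.

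MHC class II genes, which load and present peptides to CD4 T cells, were higher with IVIg in each genotype for 7 of 10 members tested (70.0%, against 10.9% of all genes), and 0 were lower in each (against 7.87%). The 7 were Cd74, the invariant chain, the alpha and beta chains H2-Aa, H2-Ab1 and H2-Eb1, and the peptide-loading genes H2-DMb2, H2-Oa and H2-Ob. H2-DMa, H2-DMb1 and Ciita, the master regulator of the family, had no common sign. The median log2 fold change was 0.34, with 0.49 in WT, 0.18 in the Dectin-1 knockout and 0.29 in the FcgRIIb knockout.

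Cd74 stood at 2153, 3505 and 3436 CPM in WT with PBS and 2797, 5443 and 2822 CPM in WT with IVIg. It stood at 3405, 3423 and 2825 CPM in the Dectin-1 knockout with PBS against 4306, 3203 and 4303 CPM with IVIg, and at 3985, 3569 and 3079.6 CPM in the FcgRIIb knockout with PBS against 5338, 5058 and 4209 CPM with IVIg. The groups were apart in the FcgRIIb knockout only, and in WT a single IVIg library exceeded the PBS range. Over the 3 genotypes the log2 fold change was 0.34 ± 0.15 (SE, n = 9 against 9, edgeR adjusted p = 1), a fold of 1.27. H2-Ab1 gave 0.35 ± 0.18, with 1148, 1869 and 1449 CPM in WT with PBS and 1159, 3503 and 1523 CPM in WT with IVIg. WT IVIg replicate 2 was thus the high library for both genes, and without it 2 of 10 members had a common higher direction, the WT median was -0.13 and the median over the genotypes was 0.07. The Dectin-1 knockout median was 0.07 without its IVIg replicate 1 and 0.09 without its PBS replicate 3. The count was 4 of 10 with limma voom and 7 without the shallow library. H2-Ab1 and H2-Eb1 (0.34 ± 0.19) were picked after their values were seen.

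Markers of other cell types that could be carried along in a monocyte sort also stood higher in part, and their part in the cell cycle and MHC class II results was not tested. Of 18 erythroid markers, 10 passed the low-count filter, 7 of these were higher in each genotype (70.0%, against 10.9% of all genes) and 0 lower. Among those that did not pass, Rhag had 0 counts, and Klf1, Gata1, Car1, Epb42 and Hemgn had 5 to 35 counts each over all 18 libraries. The median was 0.90, with 0.84 in WT, 0.52 in the Dectin-1 knockout and 1.13 in the FcgRIIb knockout, and the summed level was 43.7 to 67.8 CPM with PBS and 44.3 to 119 CPM with IVIg. Hbb-bs, an adult beta globin, stood at 2.92, 3.49 and 5.51 CPM in WT with PBS and 2.06, 10.1 and 6.32 CPM in WT with IVIg. In the Dectin-1 knockout it was at 8.27, 6.00 and 7.29 CPM with PBS and 8.41, 8.46 and 14.7 CPM with IVIg, and in the FcgRIIb knockout at 5.96, 25.4 and 5.67 CPM with PBS and 26.3, 25.0 and 10.4 CPM with IVIg. Only the Dectin-1 knockout kept its groups apart, by 8.27 against 8.41 CPM, and the highest PBS value was in the shallow library. Log2 fold changes were 0.91 ± 0.29 for Hbb-bs, 1.02 ± 0.33 for the alpha globin Hba-a1 and 1.67 ± 0.55 for Car2, a carbonic anhydrase (edgeR adjusted p = 1 each). Without WT IVIg replicate 2 the WT erythroid median was 0.15, and without FcgRIIb knockout IVIg replicate 2 that of the FcgRIIb knockout was 0.67. Erythroid members with a common higher direction numbered 4 without WT IVIg replicate 2 and 4 of those left when haemoglobin, immunoglobulin and mitochondrial genes were removed.

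Plasma cell markers had 4 of 14 tested members higher in each genotype (28.6%) and 0 lower, with a median of 0.85 that was 1.36 in WT, 0 in the Dectin-1 knockout and 0.91 in the FcgRIIb knockout. The WT median was 0.05 without WT IVIg replicate 3 and 0.46 without WT IVIg replicate 2, and the FcgRIIb knockout median was 0.38 without its IVIg replicate 2. Ighg2b, the constant region of immunoglobulin G2b, had the smallest p of all genes, at 0, 0.0218 and 0.0481 CPM in WT with PBS and 0, 1.31 and 0 CPM with IVIg. It was at 0.242, 0 and 0 CPM in the Dectin-1 knockout with PBS against 0, 0.767 and 0.943 CPM with IVIg, and at 2.49, 0 and 1.54 CPM in the FcgRIIb knockout with PBS against 6.01, 33.4 and 4.74 CPM with IVIg. It was absent from 7 of 18 libraries and apart between groups in the FcgRIIb knockout alone (log2 fold change 2.99 ± 0.64, edgeR adjusted p = 0.471). The 0 CPM in the FcgRIIb knockout with PBS belongs to the shallow library. Mzb1, a plasma cell chaperone, gave 1.41 ± 0.36 and was higher in each genotype. The summed plasma cell level was 556 to 2123 CPM with PBS and 526 to 3079 CPM with IVIg.

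NK cell markers had 5 of 18 tested members higher in each genotype (27.8%) and 1 lower (5.56%), with medians of 0.10 in WT, 0.48 in the Dectin-1 knockout and 0.80 in the FcgRIIb knockout and a summed level of 18.5 to 73.4 CPM with PBS and 21.4 to 114 CPM with IVIg. The NK cell median in WT was -0.06 without WT IVIg replicate 2, and that in the Dectin-1 knockout was 0.16 without its PBS replicate 1 and 0.13 without its IVIg replicate 3. Of 19 dendritic cell markers 5 were higher (26.3%) and 0 lower. Among them were Siglech, a lectin of plasmacytoid dendritic cells, at 1.55 ± 0.49, Xcr1 of cross-presenting dendritic cells at 0.87 ± 0.40 and the growth factor receptor Flt3 at 0.17 ± 0.18. Siglech had a mean of 0.890 CPM, too low to be measured in the shallow library, and 0 counts in 3 libraries. Dendritic cell markers had medians of -0.03 in WT, 0.47 in the Dectin-1 knockout and 0.24 in the FcgRIIb knockout. Their summed level was 476 to 927 CPM with PBS and 572 to 808 CPM with IVIg, with means of 654 and 653 CPM. Mean summed levels with PBS and IVIg were 621 and 652 CPM in WT and 532 and 608 CPM in the Dectin-1 knockout. In the FcgRIIb knockout they were 809 and 699 CPM, a direction opposite to the median there. Neutrophil markers had the highest median of all lists, 1.56, but it was -0.06 in WT, 3.24 in the Dectin-1 knockout and 0.41 in the FcgRIIb knockout. Their summed level was 932 and 1879.6 CPM in Dectin-1 knockout IVIg replicates 1 and 2 and 249 to 483 CPM in the other 16 libraries. Without the Dectin-1 knockout the neutrophil median was 0.15. Without Dectin-1 knockout IVIg replicate 2 it was 0.96 over the genotypes and 1.70 in that knockout, and without FcgRIIb knockout IVIg replicate 2 it was -0.13 in the FcgRIIb knockout.

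B cell markers had 3 of 18 higher in each genotype (16.7%) and 0 lower, T cell markers 1 of 22 in each direction (4.55%), red pulp macrophage markers 2 of 16 higher (12.5%) and 1 lower (6.25%), and platelet markers 2 of 7 tested higher (28.6%) and 0 lower. T cell medians differed in sign, at -0.51 in WT, 0.64 in the Dectin-1 knockout and 0.89 in the FcgRIIb knockout. In that order 2, 18 and 18 of the 22 members were higher with IVIg. B cell medians were 0.02, 1.03 and -0.07 in the same order. Vwf, the von Willebrand factor of platelets and endothelium, was at 0.58 ± 0.25, with 0.70, 0.51 and 0.53 in the 3 genotypes (edgeR adjusted p = 1).

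Classical monocyte markers were the family on the lower side. Of 25 members, all of which passed the filter, 8 were lower with IVIg in each genotype (32.0%, against 7.87% of all genes) and 1 was higher (4%, against 10.9%). The lower ones were Chil3, a chitinase-like protein, the Ly6C antigens Ly6c1 and Ly6c2, the chemokine receptor Ccr2 that takes these cells out of the marrow, the high-affinity receptor Fcgr1, the coagulation factor F13a1, the lysozyme Lyz1 and Gpr141. Irf8, a transcription factor of monocyte and dendritic lineages, was the higher one. The median was -0.17, with -0.22 in WT, -0.03 in the Dectin-1 knockout and -0.13 in the FcgRIIb knockout. The lower direction did not hold without single libraries, since the Dectin-1 knockout median was 0.04 without its IVIg replicate 3 and the FcgRIIb knockout median was 0.16 without its PBS replicate 3. In WT the median was -0.05 without WT PBS replicate 1.

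Chil3 (ENSMUSG00000040809, chr3:106054870-106074880 on GRCm39, minus strand) stood at 6571, 3163 and 1139.6 CPM in WT with PBS and 912, 2046 and 1607 CPM in WT with IVIg. It stood at 2403, 1496 and 1573 CPM in the Dectin-1 knockout with PBS and 997, 1083 and 825 CPM with IVIg, and at 948, 1969 and 2034 CPM in the FcgRIIb knockout with PBS and 1631, 1119 and 947 CPM with IVIg. The groups were apart in the Dectin-1 knockout, while WT PBS and FcgRIIb knockout PBS each held 1 low library inside the IVIg range. The log2 fold change was -0.86 ± 0.26 (SE, n = 9 against 9), a fold of 0.550, with an edgeR adjusted p of 1. Ccr2 gave -0.27 ± 0.19 and Ly6c2 -0.24 ± 0.17, both overlapping in every genotype. The list count was 5 of 25 with limma voom and without Dectin-1 knockout PBS replicate 1, Dectin-1 knockout IVIg replicate 3 or FcgRIIb knockout PBS replicate 3.

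Non-classical markers, in contrast, did not share a direction. Of 30 members 4 were higher in each genotype (13.3%, against 10.9%) and 0 lower, the 4 being Ace, the angiotensin-converting enzyme, the integrin chains Itgal and Itgb2, and Nr4a1, on which these cells depend. Members higher with IVIg numbered 25 of 30 in WT, 7 of 30 in the Dectin-1 knockout and 24 of 30 in the FcgRIIb knockout, with medians of 0.58, -0.12 and 0.34. Cd300e, an activating receptor of patrolling monocytes, stood at 75.7, 152 and 137 CPM in WT with PBS and 237, 339 and 228 CPM with IVIg, and at 155, 117 and 116 CPM in the FcgRIIb knockout with PBS and 184, 241 and 172 CPM with IVIg. In the Dectin-1 knockout it stood at 189, 292 and 289 CPM with PBS and 171, 259 and 176 CPM with IVIg. The groups were apart in WT and the FcgRIIb knockout and overlapped in the Dectin-1 knockout, where PBS already had the highest PBS levels of the 3 genotypes. Its interaction had an unadjusted p of 0.00354 in edgeR (adjusted p = 1), and 8 of the 30 markers had an interaction p under 0.05 (3.17% of all genes did).

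**Figure D4:**
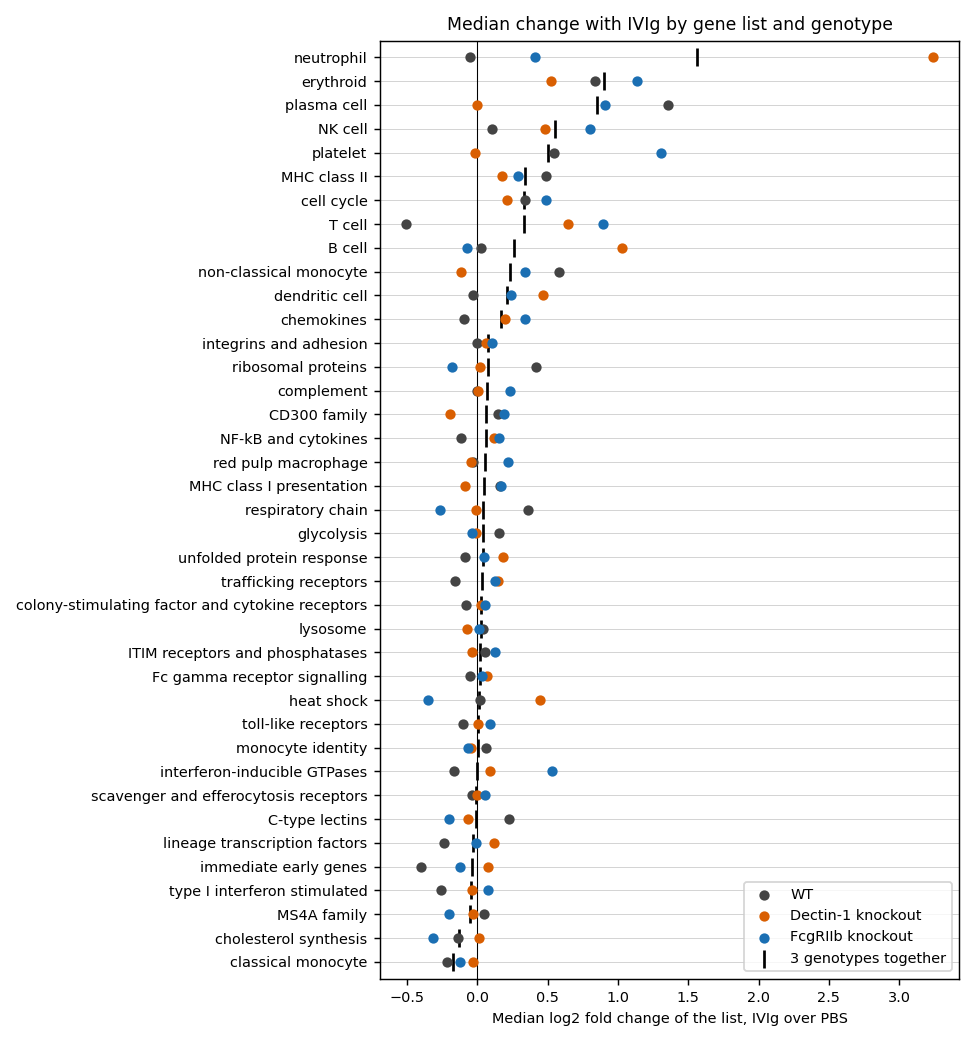
Median log2 fold change of IVIg over PBS (x axis) for each of 39 gene lists in WT, Dectin-1 knockout and FcgRIIb knockout mice, with a black tick for the 3 genotypes together. Cell cycle, MHC class II, erythroid and NK cell genes lie to the right of 0 in all 3 with all 18 libraries, classical monocyte markers to the left, and neutrophil genes reach 3.24 in the Dectin-1 knockout alone.

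Signalling and metabolic families showed few common directions. Of 45 type I interferon stimulated genes, 9 were lower in each genotype (20%, against 7.87%) and 1 higher (2.22%, against 10.9%), with a median of -0.05. The lower ones included Oasl1 and Oas2 of the oligoadenylate synthetase family, the ISG15 protease Usp18, and Ifit1, and Oasl1 had the smallest p at -0.29 ± 0.15 (edgeR adjusted p = 1). Leaving out Dectin-1 knockout PBS replicate 1 gave 14 members and leaving out IVIg replicate 3 of that genotype gave 5, and the family's median was above 0 in the FcgRIIb knockout (0.08). Cholesterol synthesis genes had 5 of 23 tested members lower in each genotype (21.7%) and 1 higher (4.35%), the 5 being Idi1, the sterol reductase Tm7sf2 (-0.30 ± 0.13), Hsd17b7, Msmo1 and the sterol sensor Insig1, with a median of 0.01 in the Dectin-1 knockout. Chemokines had 5 of 12 tested members higher (41.7%) and 1 lower (8.33%). Cxcl9, an interferon gamma induced ligand of Cxcr3, was at 0.66 ± 0.32 and Ccl5 at 0.56 ± 0.29. The chemokine median was -0.095 in WT, 0.19 in the Dectin-1 knockout and 0.34 in the FcgRIIb knockout. Their mean summed level was lower with IVIg in each genotype. It was 1370 against 1521 CPM in WT, 1607 against 1772 CPM in the Dectin-1 knockout and 1877 against 2110 CPM in the FcgRIIb knockout. Ccl7, Cxcl2 and Cxcl3 had 0 counts. Immediate early genes had 4 of 25 lower (16%), which were Fos, Zfp36, Atf3 and Klf6, and 2 higher (8%).

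Fc gamma receptor signalling genes, the family nearest to the ligand given, had 4 of 25 members higher in each genotype (16%, against 10.9%) and 2 lower (8%, against 7.87%), with a median of 0.02. Lists near or under the background in both directions included C-type lectins (1 of 25 each way), lysosomal genes (2 of 35 each way), glycolysis (2 of 23 each way), toll-like receptors (0 higher and 2 lower of 22) and MHC class I presentation (0 of 20 in either direction).

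Ribosomal protein and respiratory chain genes lay on opposite sides of 0 in different genotypes. All 70 ribosomal protein genes were higher with IVIg in WT (median 0.42), 39 in the Dectin-1 knockout (0.02) and 6 in the FcgRIIb knockout (-0.18), and 2 were higher in all 3. For the respiratory chain all 64 were higher in WT (0.36), 30 in the Dectin-1 knockout (-0.01) and 4 in the FcgRIIb knockout (-0.27), and 1 was higher in all 3. The lower side in the FcgRIIb knockout rested on its PBS replicate 3, without which the medians there were 0.17 for ribosomal proteins and 0.23 for the respiratory chain. The ribosomal median there was also -0.01 without IVIg replicate 2 or IVIg replicate 3, and in the Dectin-1 knockout it was -0.31 without IVIg replicate 1. In WT both medians stayed above 0 when any single library was left out. These genes are short, and gene length ran with the response: over 5048 abundant genes (no independent replicates), Spearman rho of exon length with the log2 fold change was -0.42 in WT, 0.27 in the Dectin-1 knockout and 0.24 in the FcgRIIb knockout, and 0.01 over the 3 together. In single libraries rho of length with the deviation from the mean level ranged from -0.65 to 0.58, and the part of library preparation in this was not tested. The 3 genotype comparisons share no libraries, and across the same genes rho between their log2 fold changes was -0.42 for WT and the Dectin-1 knockout, -0.13 for WT and the FcgRIIb knockout and -0.04 for both knockouts. With the length trend of each library removed these were -0.37, -0.03 and -0.10.

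**Figure D5:**
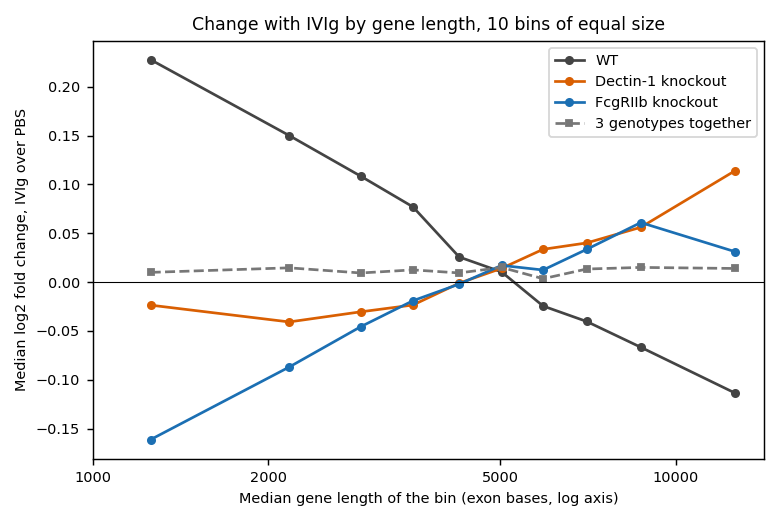
Median log2 fold change of IVIg over PBS (y axis) in 10 bins of 504 to 506 abundant genes by exon length (x axis, bases, log scale) for each genotype and for the 3 together (grey dashes). The shortest genes are highest in WT (0.23) and lowest in the FcgRIIb knockout (-0.16), and the line for the 3 genotypes together stays near 0.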

How the data were processed

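Sorted splenic monocytes gave 18 stranded messenger RNA libraries from 100 ng of total RNA, per the labels' protocols. The authors deposited raw counts per gene, which featureCounts 2.0.2 produced from the Ensembl 104 annotation (GRCm39) per the file headers, after alignment with STAR per the submitters' processing notes. Its command allowed reads to be assigned to several genes and named no strand, so overlapping, antisense and near-identical genes (globins, immunoglobulins, Ly6c1 and Ly6c2, ribosomal proteins) are uncertain. The table has 36 library columns, of which 18 fit no label and stayed unused. Title codes of unstated meaning recur within the PBS group of each knockout. Another code is shared by a WT IVIg library and an FcgRIIb knockout PBS library. If the codes name mice, both knockout PBS groups hold fewer mice than libraries. Only the design text states that the mice are independent, and p-values measure the spread between these libraries.

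From the deposited counts 17040 of 55416 genes passed filterByExpr, were scaled by TMM and tested with edgeR 4.0.16 (glmQLFit without the legacy setting, R 4.3.3) on genotype plus treatment, with 14 residual degrees of freedom. Effects within genotypes and their interaction came from a model of 6 group means. The 1492 genes without a symbol stayed in (0.125% to 0.450% of counts). The script was tested on simulated counts. No library was a copy of another, since chi-square divided by its degrees of freedom was 30.4 or more in all 153 pairs.

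The comparison, lists and named genes were chosen with earlier results of these data known. The rule named shared called genes of at least 5 CPM, filled to 6 each way by smallest p, the member with the smallest p in each list, 4 interaction genes, Clec7a and Fcgr2b. The shared and filled genes exclude Gm, Rik and unnamed models, antigen receptor segments, symbols with -ps, Xist and Y-linked genes. Other genes were named after their values were seen. Settings tried were DESeq2 1.42.0, limma 3.58.1 voom, the legacy fit, RLE factors, other filters, no genotype term, gene classes removed, the length trend removed, and libraries or genotypes left out. Figures were drawn with matplotlib.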

Additional observations from a re-analysis of the deposited data

Results flagged for a closer look

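Egr1 and Cdca3 stood out because the IVIg libraries were above the PBS libraries without overlap in one genotype and below them without overlap in another. Egr1, an immediate early transcription factor, stood at 2.21, 1.74 and 6.02 CPM in WT with PBS and 1.03, 0.143 and 0.333 CPM with IVIg. In the Dectin-1 knockout it stood at 0.424, 0.292 and 0.520 CPM with PBS and 2.97, 1.79 and 2.49 CPM with IVIg, so the direction was opposite. The log2 fold changes were -2.76 ± 0.67 and 2.52 ± 0.82 (SE), and -0.33 ± 0.80 in the FcgRIIb knockout, with an edgeR interaction p of 0.000307 (adjusted p = 1).

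Cdca3, a trigger of mitotic entry, stood at 0.901, 1.09 and 0.626 CPM in WT with PBS and 1.29, 2.39 and 2.55 CPM with IVIg. In the Dectin-1 knockout it stood at 2.57, 4.85 and 5.91 CPM with PBS and 0.742, 2.04 and 1.01 CPM with IVIg, opposite to most cell cycle genes listed above. The log2 fold changes were 1.25 ± 0.59, -1.69 ± 0.54 and, in the FcgRIIb knockout, 1.91 ± 0.73, with an edgeR interaction p of 0.000959 (adjusted p = 1). Both genes were picked by the smallest interaction p values.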

How the results depend on the processing

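The blocked comparison called 0 genes in 31 of 32 alternative settings, and 0 to 2 when single libraries were left out: without Dectin-1 knockout IVIg replicate 3 it called Mpo, the granule peroxidase (2.72, edgeR adjusted p = 0.0433), and Prg2, and 1 of these (0 to 1 over left-out libraries) had a common sign. Genes at an unadjusted p under 0.05 numbered 270 with the legacy fit, 263 with the stricter filter (1 CPM in 3 libraries) and 358 to 593 without single libraries. Calls within WT numbered 2 with DESeq2, 0 with the legacy fit, limma voom, the stricter filter or WT PBS replicate 3 and WT IVIg replicate 1 removed (shallow library kept or not), and 0 to 1 without single libraries. In the Dectin-1 knockout they numbered 2 with DESeq2, 1 without a filter and 0 to 13 without single libraries, and in the FcgRIIb knockout 16 with DESeq2. Members with a common direction ranged, without single libraries, over 11 to 28 for cell cycle, 2 to 8 for MHC class II (4 with limma voom), 4 to 8 for erythroid (4 with gene classes removed), 5 to 9 for classical monocyte (5 with limma voom) and 5 to 14 for interferon stimulated genes. The background moved too. Without single libraries, 1707 to 2381 of all genes were higher in all 3 genotypes and 1237 to 1583 lower. In the other settings these counts were 1434 to 2238 and 1040 to 1843. Of 2262 values for 71 named genes 2245 kept their sign uncalled, 1 was called and 16 reversed. Reversed log2 values were Retnlg at -0.48 and Gm32098 at -0.97 without the Dectin-1 knockout, and Jchain at -0.14, Vcan at 0.049, Rps29 at -0.015 (-0.013 with limma voom) and Egr1 at 1.08 without WT. Egr1 was at 0.062 and 0.15 without that WT pair and at -0.73 to 0.060 without single libraries (highest without WT PBS replicate 3). Cdca3 was at -0.35 without WT, -0.38 without the FcgRIIb knockout, -0.085 with limma voom and -0.12 to 0.45 without single libraries. The causes were not tested. No paired analysis was possible because the replicate numbers were assigned by accession and pair nothing. The shallow library limits genes under 4.23 CPM in its group. The settings that leave out the WT pair were chosen after seeing the data.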

Other observations

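Gm9574, a gene model named after its values were seen, was the gene called within WT (edgeR adjusted p = 0.0187). It stood at 6.22, 0.654 and 6.57 CPM in WT with PBS and 0.351, 0.0205 and 0 CPM with IVIg, and at 0 to 0.463 CPM in the 12 knockout libraries, so its WT level with PBS was high in 2 of 3 mice. Retnlg, a resistin-like protein of neutrophils, had the smallest interaction p of all genes (0.000209 in edgeR, adjusted p = 1). It stood at 18.7, 53.6 and 4.50 CPM in the Dectin-1 knockout with IVIg against 0.333, 0.610 and 1.41 CPM with PBS, and at 0 to 6.68 CPM in the other 12 libraries.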
